A study of Mus musculus with 90 samples.

Results

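Transcript levels in the frontal cortex of control mice were compared between 60 and 120 min after a 5 min exposure to a mesh cage that held a paper cup. The comparison took 11 of the 90 libraries of the series, every frontal cortex control library labelled 60 min (5 libraries, controls 1, 2, 3, 5 and 6) or 120 min (6 libraries, controls 1 to 6), chosen by label and not by any measured value. All animals were C57BL/6J males that held a territory as residents and had shared their cage with a female until a few hours before the test. After the cage was taken out they were left undisturbed in the dark and then killed by cervical dislocation, and each animal gave tissue at a single time. The controls met no other mouse, so the comparison holds the time after handling, the new object and the removal of the female, and not a social encounter. Residents exposed to a caged BALB/c male, 5 libraries at 60 min and 6 at 120 min, and the control libraries of 30 min (5 libraries), hypothalamus and amygdala serve for comparison, and the test shares its filter and its estimate of the spread over all 32 frontal cortex libraries. Each library carries 1 animal label, although the series text also says that RNA was pooled for the libraries, so the spread between libraries is the spread between these samples.

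Immediate-early genes are genes that neurons switch on within minutes of activity without making new protein first. Most encode transcription factors, such as the Fos, Egr and Nr4a families, and their messages are short-lived, so that levels fall again soon after a stimulus ends. Handling and a change of surroundings engage them in cortex, and they also raise glucocorticoids, steroids that reach the brain and switch on target genes such as Fkbp5 more slowly. Frontal cortex is built of layered excitatory neurons, inhibitory interneurons and glia, whose receptors and ion channels are encoded by some of the longest transcripts of the genome, while proteins of the ribosome and of mitochondria are encoded by short ones.

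The upstream sequences of 4 immediate-early genes that were lower at 120 min are shown, those whose call held in every fit that left out 1 library. Of the 8 immediate-early genes called lower, 7 were found in the promoter table. Each sequence is the 250 bases before the transcript start, 5′ to 3′ on the gene's strand, from RefSeq on GRCm38.p6. Capitals mark TGACG, the half-site of the cAMP response element, on either strand (CGTCA on the other), and the CArG box, the site of serum response factor. Egr2 has 5 listed starts and the window of the last is printed.
Fos, chr12:85473640-85473889, plus strand: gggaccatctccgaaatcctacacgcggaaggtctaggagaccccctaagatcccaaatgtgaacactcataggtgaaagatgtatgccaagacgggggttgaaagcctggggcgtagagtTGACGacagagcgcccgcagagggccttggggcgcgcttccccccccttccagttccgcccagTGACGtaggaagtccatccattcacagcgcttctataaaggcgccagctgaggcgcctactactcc
Egr4, chr6:85513590-85513839, minus strand: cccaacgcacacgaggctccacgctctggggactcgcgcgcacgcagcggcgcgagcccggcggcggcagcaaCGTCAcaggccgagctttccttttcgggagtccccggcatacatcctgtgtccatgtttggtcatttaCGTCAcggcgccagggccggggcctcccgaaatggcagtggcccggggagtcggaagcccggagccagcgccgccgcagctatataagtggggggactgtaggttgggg
Nr4a3, chr4:48045055-48045304, plus strand: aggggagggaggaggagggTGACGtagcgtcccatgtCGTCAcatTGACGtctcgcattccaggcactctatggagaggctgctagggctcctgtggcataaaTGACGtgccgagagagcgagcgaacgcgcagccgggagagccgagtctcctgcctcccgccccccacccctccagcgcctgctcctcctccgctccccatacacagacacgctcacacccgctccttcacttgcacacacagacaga
Egr2, chr10:67537680-67537929, plus strand: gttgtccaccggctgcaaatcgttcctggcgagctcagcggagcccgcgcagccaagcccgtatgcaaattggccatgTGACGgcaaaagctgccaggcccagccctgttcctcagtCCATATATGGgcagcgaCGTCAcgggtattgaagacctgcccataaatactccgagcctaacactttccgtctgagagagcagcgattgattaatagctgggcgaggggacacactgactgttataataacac
The half-site occurred 2 times upstream of Fos, 2 times upstream of Egr4, 4 times upstream of Nr4a3 and 2 times in the Egr2 window shown. It was found in 6 of the 7 genes and not in the Fosl2 window, and 17.8% of 32851 upstream windows of this length in the table held it. Of the 18 tested immediate-early genes with a window, called or not, 15 (83.3%) held it. A gene is counted when any of its listed windows holds the letters, whereas the share over the table counts single windows. The CArG box was found in 1 of the 7 genes, Egr2, in 4 of its 5 windows, and in 1.47% of all windows. The full element TGACGTCA, which contains the half-site on both strands, was in 0 of the 7, in 3 of the 18 (16.7%) and in 1.55% of all windows. The matches are descriptions of the letters and not of bound sites.

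Before the results, 2 libraries have to be set apart. On the first principal component of log CPM (a gene's read count per 1 M reads of the scaled library size) over the 11 libraries, which held 26.9% of the variance, 60 min controls 1 and 5 were at 27.1 and 40.0, while 60 min controls 2, 3 and 6 were at -2.17, 6.94 and 1.14 and the 120 min controls lay between -22.0 and -5.63. The libraries held 38.6 M to 53.8 M reads in genes, and the depth of the 2 times did not pass the test of a difference (exact permutation test, two-sided, p = 0.760). The tissue label was checked against markers. The mean log2(CPM + 1) of 8 excitatory cortical neuron genes was 7.80 to 8.10 in the 11 libraries, and that of 8 tested hypothalamic peptide genes was 0.71 to 1.15. Markers of neighbouring tissue varied between libraries. The striatal score ran from 3.55 to 6.20 across both times, the olfactory bulb score was 2.64 ± 0.97 (SD, n = 5) at 60 min and 1.97 ± 0.38 (SD, n = 6) at 120 min, and the choroid plexus score was 1.64 ± 0.88 and 1.16 ± 0.19.

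At 120 min 8 of 24 immediate-early genes were lower than at 60 min, 4 of 16 glucocorticoid-responsive genes were higher and 2 lower, and 64 of 78 ribosomal protein genes and 57 of 79 nuclear genes of the respiratory chain and ATP synthase were lower. Called higher were 7 of 29 receptor subunits, 10 of 27 potassium channels and 9 of 22 histone methyltransferases. A gene is called when the edgeR quasi-likelihood test gave a Benjamini-Hochberg adjusted p below 0.05 over all 17091 genes tested. In all 2713 genes (15.9%) were called, 1511 higher (8.84%) and 1202 lower (7.03%) at 120 min. Fitted on the 60 and 120 min libraries alone the test called 2263 genes and on the 11 control libraries alone 2678. The changes were small: the median log2 change was 0.27 among genes called higher and -0.20 among those called lower, and 66 and 23 genes passed 2-fold. Levels of the 2 groups did not overlap in 1348 genes (7.89%), with 751 higher (4.39%) and 597 lower (3.49%) at 120 min. In bulk tissue a smaller number of cells of a type and less RNA per cell cannot be told apart. The count rested on the libraries set apart above: without 60 min controls 1 and 5 edgeR gave no call (0 genes; 3460 had an unadjusted p below 0.05, and the smallest adjusted p was 0.0710). In that fit, which shares 9 of the 11 libraries, the medians of the genes called higher and lower were 0.21 and -0.18. Without 60 min control 5 alone 428 genes were called, without 60 min control 1 alone 1676, and without 120 min control 2 alone 1087. The log2 change without 60 min controls 1 and 5 is therefore given beside most of the genes below, and none of them was called in that fit. Of the 244 called genes that the lists and the rule for names cover, 59 were called without 60 min control 5 alone, 188 without 60 min control 1 alone and 132 without 120 min control 2 alone.

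Of 24 immediate-early genes tested, 8 were lower and 0 higher at 120 min, and 20 had a negative log2 change, with a list median of -0.31 against -0.01 over all genes tested. Values at 60 min are given for controls 1, 2, 3, 5 and 6 in that order. Fos, which forms the AP-1 transcription factor with Jun proteins, was at 53.4, 53.1, 58.8, 46.7 and 45.5 CPM at 60 min and at 20.7 to 35.0 CPM at 120 min (median 30.0). Every 60 min library lay above every 120 min library, and 60 min controls 1 and 5 did not stand out. The log2 change was -0.81 ± 0.22 (SE; edgeR adjusted p = 0.0163), a fold of 0.569, and -0.85 without 60 min controls 1 and 5. Egr4, a zinc finger factor of the early growth response family, was at 62.1, 56.1, 60.3, 60.0 and 55.8 CPM at 60 min and at 32.2 to 42.2 CPM (median 34.3) at 120 min. The groups were again separate, with a spread of 2.80 CPM (SD) within the 60 min controls, and the log2 change was -0.74 ± 0.14 (edgeR adjusted p = 0.00743; -0.71 without the 2 libraries). Egr2, of the same family, fell furthest of the list, from 22.1, 19.9, 21.8, 18.1 and 18.5 CPM to 5.70 to 11.3 CPM (median 9.11). Its groups were separate and its log2 change was -1.21 ± 0.28 (edgeR adjusted p = 0.0102; -1.21 without the 2 libraries). Nr4a3, an orphan nuclear receptor, went from 60.8, 43.7, 61.9, 58.7 and 51.8 CPM to 26.4 to 36.0 CPM (median 29.2), also without overlap, by a log2 change of -0.88 ± 0.18 (edgeR adjusted p = 0.00808; -0.80 without the 2 libraries). Fos, Egr4, Egr2 and Nr4a3 stayed called in each of the 11 fits that left out a single library.

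**Figure D1:**
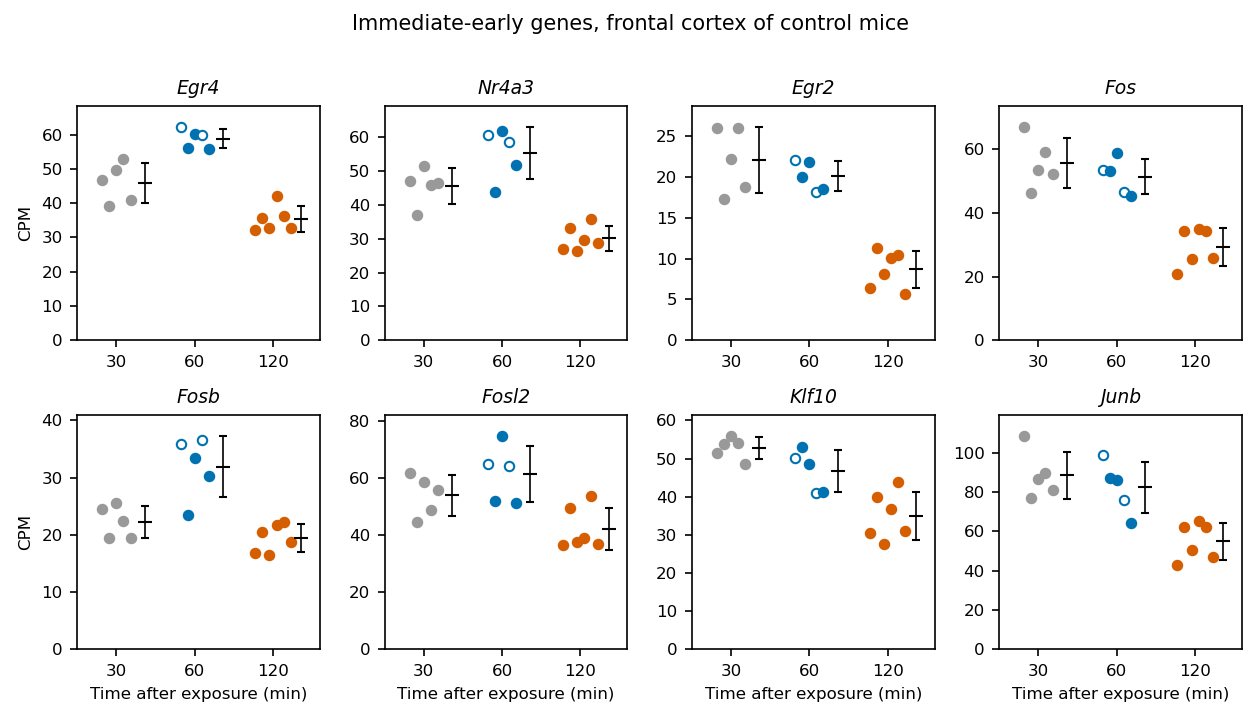
Levels in CPM (vertical axes from 0) of the 8 immediate-early genes called lower at 120 min, in each frontal cortex control library at 30, 60 and 120 min after exposure (horizontal axes). Points are libraries, open points are 60 min controls 1 and 5, and black bars are the mean ± SD of 5, 5 and 6 libraries. Fos, Egr2, Egr4, Nr4a3 and Fosb show no overlap between 60 and 120 min, and the 30 min libraries of Egr2 (17.3 to 26.0 CPM) lie beside those of 60 min.

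The other called members moved less or overlapped. Fosb, of which a stable truncated protein accumulates with repeated activity, was at 35.8, 23.4, 33.4, 36.5 and 30.3 CPM at 60 min and at 16.4 to 22.1 CPM (median 19.6) at 120 min. The closest libraries, 60 min control 2 and the highest 120 min control, were 23.4 and 22.1 CPM, and the log2 change of -0.71 ± 0.21 (edgeR adjusted p = 0.0208; -0.58 without the 2 libraries) was not called without 60 min control 5 (edgeR adjusted p = 0.0711). Fosl2 changed by -0.54 (edgeR adjusted p = 0.0377), Klf10, a zinc finger gene, by -0.42 (0.0397) and Junb, a partner of Fos proteins, by -0.58 (0.0420). Without the 2 libraries set apart these changes were -0.50, -0.45 and -0.53, and in each of the 3 the groups overlapped and 7 or 8 of the 11 fits without 1 library lost the call. Among the 16 members that were not called, log2 changes ran from -0.54 (Sik1) to 0.27 (Egr3). Arc, which encodes a synaptic protein, was at 377, 517, 507, 309.7 and 411 CPM at 60 min and at 198 to 428 CPM at 120 min (edgeR adjusted p = 0.223). Egr1 was at 418 to 583 CPM at 60 min and at 331 to 441 CPM at 120 min, a log2 change of -0.34 (edgeR adjusted p = 0.0632). Side by side the changes of the Egr genes were -1.21 for Egr2, -0.74 for Egr4, -0.34 for Egr1 and 0.27 for Egr3, and differences between these members were not tested. Egr3 was at 44.2 to 80.2 CPM at 60 min and at 63.6 to 89.9 CPM at 120 min. The 30 min controls stood beside those of 60 min for Fos (46.4 to 66.9 CPM), Egr2 (17.3 to 26.0 CPM) and Klf10 (48.5 to 55.8 CPM), while for Fosb they were at 19.5 to 25.6 CPM, nearer to 120 min. Egr4, at 39.1 to 53.0 CPM, lay below the 60 min range and overlapped that of 120 min, and Nr4a3, at 37.1 to 51.4 CPM, overlapped the 60 min range and lay above that of 120 min. The table's column names mark all 30 min libraries with another tag (ISO) than all libraries of 60 and 120 min (CERV), whose meaning the labels do not give, so that tag and time cannot be told apart for 30 min.

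Immediate-early genes were among the few genes called in the other regions of the control animals. Of the 2713 genes called in frontal cortex, 34.9% had the same direction in hypothalamus and 72.9% in amygdala. In hypothalamus controls 7 of 17676 genes (0.0396%) were called between 60 and 120 min and all 7 were lower, 5 of them immediate-early genes: Fos (log2 change -1.17, edgeR adjusted p = 0.00287), Junb (-0.81, 0.00461), Egr1 (-0.94, 0.00744), Sik1 (-0.50, 0.0174) and Nr4a1 (-0.68, 0.0495). The other two were Midn, which was lower in frontal cortex as well (log2 change -0.28 in hypothalamus and -0.41 in cortex, edgeR adjusted p = 0.0174 and 0.0120), and Zfp516. These genes are named because the counts are so small, after their values were seen. In amygdala controls 4 of 17277 genes (0.0232%) were called, and Fos was among them with a log2 change of -0.92 (edgeR adjusted p = 0.0168). The list median was -0.31 in hypothalamus and -0.37 in amygdala, beside -0.31 in frontal cortex, and 20 and 24 of 24 members were negative there. The difference in change between frontal cortex and hypothalamus, tested with the animal as a block, was 0.29 for Fos (edgeR adjusted p = 0.268), and an absence of difference is not shown by it. For Egr1 the difference was called (edgeR adjusted p = 0.00902), with the larger drop in hypothalamus, and for Klf10 it was called in the other direction (-0.42 in frontal cortex and 0.25 in hypothalamus, edgeR adjusted p = 0.0186). These were the 2 of 24 members with a called difference, a share near the 8.35% of all 17424 genes called in that test. In frontal cortex of intruder-exposed residents, other animals, 1 of 24 members was lower and 1 higher, with a median of -0.10, and these 2 calls are below the 22.9% of 17091 genes called there (2198 higher, 12.9%, and 1716 lower). Fos changed there by -0.27 (edgeR adjusted p = 0.390) and Egr4 by -0.50 (0.0129). The test of the difference between the changes of controls and of intruder-exposed residents called 0 genes by edgeR and 0 by DESeq2, with 797 at an unadjusted p below 0.05 in edgeR, and the adjusted p of both Fos and Egr4 was 0.989.

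Glucocorticoid-responsive genes moved in both directions, with 4 higher and 2 lower among 16 tested and a median of -0.06. Zbtb16, a zinc finger repressor, was at 22.1, 34.8, 29.5, 13.1 and 28.7 CPM at 60 min and at 48.9 to 62.1 CPM (median 56.0) at 120 min. All 120 min libraries lay above all 60 min libraries, and 60 min control 5 was the lowest of all. The log2 change was 1.11 ± 0.26 (edgeR adjusted p = 0.00925), a fold of 2.16, and 0.83 without 60 min controls 1 and 5, and the call held in each of the 11 fits that left out a single library. Plin4, a protein of lipid droplets, was at 8.23, 10.1, 8.27, 5.09 and 5.22 CPM at 60 min and at 14.4 to 21.6 CPM (median 16.0) at 120 min. Its groups did not overlap, the 30 min controls were at 2.64 to 10.1 CPM, and the log2 change was 1.22 ± 0.35 (edgeR adjusted p = 0.0214; 1.12 without the 2 libraries). Fkbp5, which encodes a chaperone that lowers the sensitivity of the glucocorticoid receptor, was at 41.0, 49.2, 37.6, 36.1 and 30.5 CPM at 60 min and at 45.2 to 67.4 CPM (median 59.6) at 120 min. A single 120 min library lay below the highest 60 min library, and the log2 change was 0.60 ± 0.16 (edgeR adjusted p = 0.0155; 0.59 without the 2 libraries). Klf9, a transcription factor gene with glucocorticoid response elements, changed by 0.42 (edgeR adjusted p = 0.0224) and by 0.24 without the 2 libraries, a difference in the value of over 1.5 times. Ddit4, an inhibitor of the mTOR pathway, and Mt1, a metallothionein, were lower (-0.41 and -0.25, edgeR adjusted p = 0.0190 and 0.0223; -0.38 and -0.30 without the 2 libraries). Without 60 min control 5 alone Zbtb16 was the 1 gene of the 6 still called, and Plin4, Fkbp5, Klf9, Ddit4 and Mt1 were not (edgeR adjusted p = 0.0789, 0.0571, 0.102, 0.0798 and 0.0564). Without 120 min control 2 alone Plin4, Klf9 and Mt1 were not called, without 60 min control 1 alone Klf9 was not, and without 60 min control 2 alone Mt1 was not. In hypothalamus and amygdala controls the log2 change was 1.3 and 0.99 for Zbtb16, 0.95 and 1.34 for Plin4 and 0.65 and 0.32 for Fkbp5, and none of these was called there.

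Among 21 circadian clock genes 4 were higher and 1 lower, with a median of 0.08. The share called was 23.8%, beside 15.9% over all genes tested. Per3, a period gene of the negative limb of the clock, was at 59.9, 58.4, 54.3, 51.8 and 57.9 CPM at 60 min and at 64.0 to 79.9 CPM (median 66.5) at 120 min. The groups did not overlap, and the log2 change was 0.29 ± 0.07 (edgeR adjusted p = 0.0116; 0.27 without the 2 libraries set apart). Clock, a driver of the positive limb, Rora, a nuclear receptor that activates Bmal1, and Nr1d2, which represses it, were higher by log2 changes of 0.36, 0.45 and 0.21 (edgeR adjusted p = 0.0131, 0.0136 and 0.0499). For Rora 60 min controls 1 and 5 were at 48.3 and 41.3 CPM and the other 60 min controls at 70.3 to 76.5 CPM, and without those 2 libraries its log2 change was 0.20, that of Clock 0.24 and that of Nr1d2 0.10. Nfil3, a repressor of output genes of the clock, was lower (-0.45, edgeR adjusted p = 0.0173; -0.42 without the 2 libraries). Each of these 5 calls was lost without 60 min control 5 alone, and that of Nr1d2 in 8 of the 11 fits without 1 library. Among 16 heat shock and cold-inducible genes, Hspe1, a mitochondrial chaperone, was lower (-0.24, edgeR adjusted p = 0.0189) and the other 15 were not called. Without 60 min control 5 Hspe1 was not called either. The share called, 6.25%, was below that over all genes, and 15 of the 16 had a negative log2 change, with a median of -0.08.

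Among the ligand-gated receptors, 7 of 29 ionotropic glutamate and GABA-A receptor subunits were higher and 0 lower, with a median of 0.10, against 8.84% and 7.03% over all genes. Grin2a, a regulatory subunit of the NMDA receptor, was at 8.18, 11.02, 12.8, 5.21 and 8.78 CPM at 60 min and at 13.9 to 28.9 CPM (median 19.9) at 120 min. The groups did not overlap, and 60 min control 5 was the lowest library and 60 min control 1 the next. The log2 change was 1.19 ± 0.31 (edgeR adjusted p = 0.0147), a fold of 2.28, and 0.94 without the 2 libraries. Grin2b, the partner subunit that dominates early in life, was at 11.2, 10.4, 14.7, 7.01 and 9.52 CPM at 60 min and at 11.4 to 29.1 CPM (median 21.2) at 120 min. These groups overlapped, and its log2 change was 1.05 ± 0.32 (edgeR adjusted p = 0.0263; 0.92 without the 2 libraries). Among GABA-A subunits Gabra2, Gabra3, Gabrb1 and Gabrb2 were higher, by log2 changes of 0.21 to 0.39 and, without the 2 libraries, of 0.11 to 0.38. Without 60 min control 5 alone 0 of the 7 subunits were called (Grin2a with an edgeR adjusted p of 0.0619), without 60 min control 1 alone 3 and without 120 min control 2 alone 1, and Grin2b lost it in 4 of the 11 fits without 1 library.

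Voltage-gated potassium channel genes, which set the firing pattern of neurons, had 10 of 27 tested members higher and 0 lower, with a median of 0.18. Kcnq3, a subunit of the M-current channel, was at 8.61, 13.6, 12.7, 6.78 and 10.2 CPM at 60 min and at 14.0 to 25.9 CPM (median 20.1) at 120 min, separate groups that differed by 0.98 ± 0.24 on the log2 scale (edgeR adjusted p = 0.0119; 0.74 without the 2 libraries). Kcna2, a channel of axons, was at 12.9, 21.3, 23.9, 7.68 and 14.5 CPM at 60 min and at 22.9 to 53.0 CPM (median 38.5) at 120 min. Here 60 min control 3 lay above the lowest 120 min library, and the log2 change was 1.23 ± 0.35 (edgeR adjusted p = 0.0201; 0.91 without the 2 libraries). The least abundant of the named channels was Kcna3, at 0.607 to 2.20 CPM at 60 min and 1.82 to 4.12 CPM at 120 min, with a log2 change of 1.37 (edgeR adjusted p = 0.0173; 1.1 without the 2 libraries). Kcnh5, Kcnh7, Kcnh1, Kcnq5 and Kcnc1 were also called, with log2 changes of 0.19 to 0.68, which were 0.08 to 0.39 without the 2 libraries. Of the 10 calls 1 held without 60 min control 5 alone, 4 without 60 min control 1 alone and 4 without 120 min control 2 alone, and Kcnq3, Kcna2 and Kcna3 were among those lost without 60 min control 5. The 30 min controls of Kcnq3, Kcna2 and Kcna3 lay within or beside the 120 min range, at 20.1 to 27.5 CPM for Kcnq3. Among 17 hormone receptors 2 were higher and 0 lower, 11.8% beside 15.9% over all genes tested. Pgr, the progesterone receptor, changed by 0.76 (edgeR adjusted p = 0.0218) and by 0.52 without the 2 libraries. It lost its call without 60 min control 1, 60 min control 5 or 120 min control 2 alone.

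**Figure D2:**
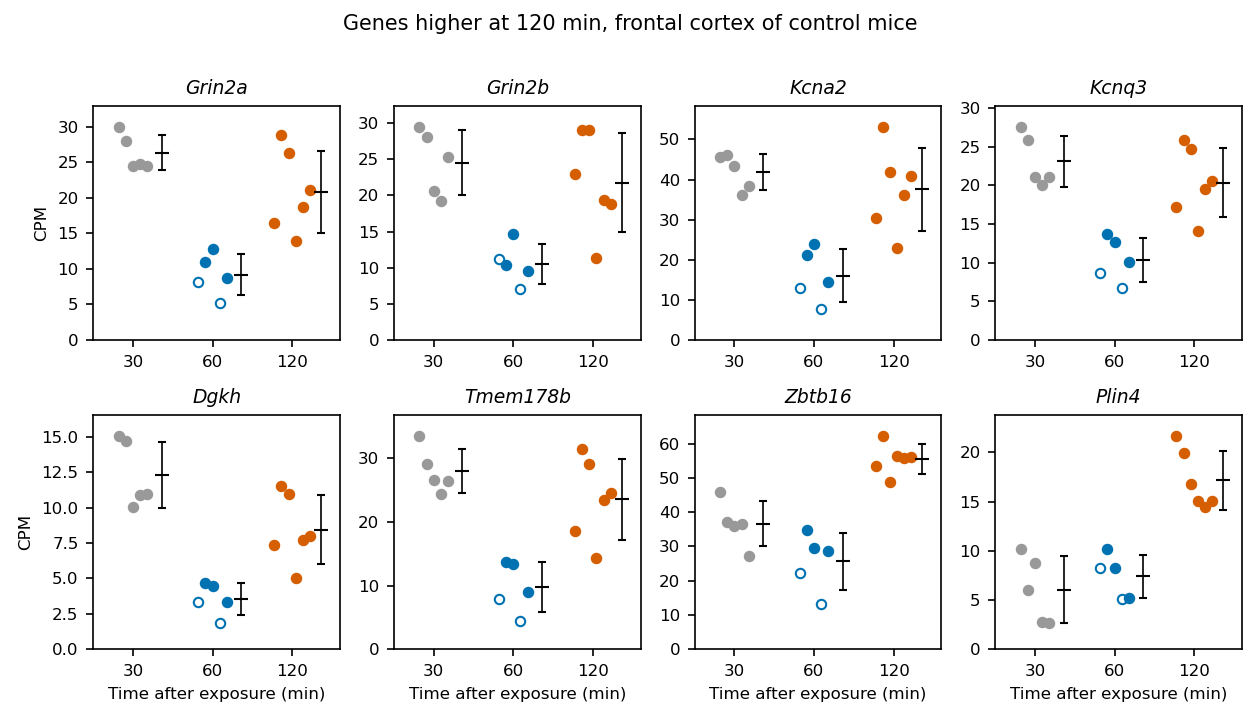
Levels in CPM (vertical axes from 0) of 8 genes called higher at 120 min, in each frontal cortex control library at 30, 60 and 120 min (horizontal axes), with points, open points and bars as in the plot of immediate-early genes. For Grin2a, Kcnq3 and Tmem178b the 30 min libraries stand with those of 120 min (Grin2a at 24.5 to 29.9 CPM), while for Plin4 they stand with those of 60 min (2.64 to 10.1 CPM).

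Among genes whose groups did not overlap and whose mean was at least 1 CPM, the largest rises included Grin2a and Plin4, described above, and Tmem178b, Glra3 and Dgkh. Tmem178b, a membrane protein gene, was at 7.92, 13.7, 13.5, 4.39 and 9.05 CPM at 60 min and at 14.4 to 31.4 CPM (median 24.0) at 120 min. Its log2 change was 1.29 ± 0.32 (edgeR adjusted p = 0.0119; 0.96 without the 2 libraries). Its lowest library was 60 min control 5 and the groups were separate. Glra3, a glycine receptor subunit, and Dgkh, a diacylglycerol kinase, changed by 1.34 and 1.27 (edgeR adjusted p = 0.0163 and 0.0132), by 1.22 and 1.02 without the 2 libraries, and these 3 genes lost the call without 60 min control 5 alone. Glra3 also lost it without 120 min control 2 alone (edgeR adjusted p = 0.0518). Of the genes named within these limits of overlap and CPM, Aqp1, a water channel of the choroid plexus, had the largest drop. It went from 2.01, 1.08, 1.3, 3.49 and 1.76 CPM to 0.32 to 0.636 CPM (median 0.568). The log2 change was -1.92 ± 0.40 (edgeR adjusted p = 0.00808) and -1.44 without the 2 libraries. Other markers of choroid plexus followed other libraries: Ttr was at 139 and 279 CPM in 60 min controls 2 and 6, at 0.182 to 3.57 CPM in the other 60 min controls and at 2.86 to 28.0 CPM at 120 min, and it was not called (edgeR adjusted p = 0.0969). Of the 7 markers 7 had a negative log2 change and Aqp1 alone was called, and the part of this tissue in the drop of Aqp1 was not tested. Bcl6b, a repressor of transcription, was lower by 0.84 ± 0.17 in size, from 1.70 to 2.94 CPM at 60 min to 1.02 to 1.66 CPM at 120 min (edgeR adjusted p = 0.00808; -0.93 without the 2 libraries).

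The genes with the smallest p-values had smaller changes. Arhgap21, a GTPase activating protein, was at 172, 177, 177, 159 and 175 CPM at 60 min and at 207 to 237 CPM (median 219) at 120 min, a log2 change of 0.37 ± 0.06 (edgeR adjusted p = 0.00733; 0.32 without the 2 libraries). Flrt2, a guidance and adhesion protein, was at 65.3, 64.0, 73.0, 60.3 and 76.0 CPM and at 82.4 to 98.9 CPM (median 89.95), a log2 change of 0.41 ± 0.07 (edgeR adjusted p = 0.00743; 0.34 without the 2 libraries). Pdp2, a phosphatase that activates pyruvate dehydrogenase, went from 2.64 to 3.77 CPM to 4.29 to 5.20 CPM, a log2 change of 0.62 with and without the 2 libraries. On the lower side N4bp3, a regulator of neurite branching, had the smallest adjusted p of all genes. It was at 17.0, 15.2, 14.0, 19.4 and 13.9 CPM at 60 min and at 8.99 to 11.4 CPM (median 11) at 120 min, a log2 change of -0.61 ± 0.09 (edgeR adjusted p = 0.000954; -0.47 without the 2 libraries). Tmsb4x, thymosin beta 4, which binds actin monomers, was at 579, 589, 591, 638 and 582 CPM and at 450.4 to 511 CPM (-0.29, edgeR adjusted p = 0.00743), and Mt3, a metallothionein of neurons and glia, at 149 to 177 CPM and at 113 to 138 CPM (-0.36, edgeR adjusted p = 0.00743). Without the 2 libraries their log2 changes were -0.27 and -0.34. In all 6 genes the groups were separate, and the 6 calls held in each of the 11 fits without 1 library. Named by the same rule were Ankrd34c, Gcfc2, Gpc6, Magi1 and Dcbld2 among the higher genes, with log2 changes of 0.26 to 0.96, and Ngdn, Fli1, Praf2, Cox17 and Eif1 among the lower ones, with changes of -0.43 to -0.24. Without the 2 libraries these were 0.22 to 0.79 and -0.42 to -0.23. With offsets for length and GC content Praf2 was not called (log2 change -0.10, edgeR adjusted p = 0.138), and the change of Magi1 was 0.12 in place of 0.26. Mt3, Ngdn, Tmsb4x and Eif1 were called with the offsets at smaller changes of -0.21, -0.16, -0.19 and -0.16, beside -0.36, -0.27, -0.29 and -0.24.

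Among genes of the ribosome, the mitochondrion, the proteasome and central metabolism the calls were on the lower side, in shares that differed between lists. Of 78 cytosolic ribosomal protein genes tested 64 were lower and 0 higher, and 78 of the 78 had a negative log2 change, with a median of -0.19 (-0.15 without the 2 libraries). Rplp2, a protein of the ribosomal stalk, was at 105, 114, 114, 119 and 107 CPM at 60 min and at 76.2 to 97.9 CPM (median 92.9) at 120 min, separate groups with a log2 change of -0.30 with and without the 2 libraries (edgeR adjusted p = 0.00808). Reads of ribosomal protein genes are shared with many pseudogenes and reads aligned to several places were not counted, so levels of single members are uncertain to that extent. Of 79 nuclear genes of oxidative phosphorylation 57 were lower and 0 higher, with a median of -0.19 (-0.17 without the 2 libraries). Uqcrb, a subunit of complex III, was at 62.8, 66.5, 64.2, 73.5 and 69.7 CPM at 60 min and at 50.1 to 60.2 CPM (median 55) at 120 min, and its groups were separate, with a log2 change of -0.30 with and without the 2 libraries (edgeR adjusted p = 0.00808). Of 12 protein genes on the mitochondrial genome mt-Atp8 and mt-Nd3 were lower (-0.49 and -0.25, edgeR adjusted p = 0.00892 and 0.0158; -0.36 and -0.21 without the 2 libraries). Proteasome subunits had 17 of 38 lower and 0 higher, and enzymes of glycolysis and the citrate cycle 9 of 31 lower and 0 higher, among them Ldha, lactate dehydrogenase A (-0.21, edgeR adjusted p = 0.0155; -0.17 without the 2 libraries). Without 60 min control 5 alone 9 of the 64 ribosomal, 16 of the 57 oxidative phosphorylation, 6 of the 17 proteasome and 0 of the 9 glycolysis and citrate cycle calls held. Without 120 min control 2 alone 37, 31, 8 and 2 of them held, and without 60 min control 1 alone 55, 46, 14 and 3. Rplp2 and Uqcrb are among those that held in each of the 11 fits, and Ldha was lost without 60 min control 5. Splicing factors split, with 7 of 31 lower, such as Srsf3 (-0.15, edgeR adjusted p = 0.0244), and Srsf11 alone higher (0.15, edgeR adjusted p = 0.0268), and 0 of these 8 calls held without 60 min control 5 alone.

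Enzymes that methylate histones had 9 of 22 members higher and 0 lower, with a median of 0.14 (0.12 without the 2 libraries). With offsets for length and GC content the median was 0.01, with 12 members positive and 10 negative, and 1 of 22 was called. Ash1l, which methylates histone H3 at transcribed genes, was at 109.8, 120.5, 117, 98.5 and 116 CPM at 60 min and at 132 to 164 CPM (median 148) at 120 min. Its groups were separate and the log2 change was 0.40 ± 0.08 (edgeR adjusted p = 0.00813; 0.32 without the 2 libraries). Kmt5b, which methylates histone H4, was at 46.6, 45.6, 45.4, 44.2 and 47.3 CPM and at 52.0 to 56.3 CPM (median 54.0), again separate, and its log2 change was 0.24 ± 0.05 (edgeR adjusted p = 0.00743; 0.22 without the 2 libraries). With the offsets the changes of Ash1l and Kmt5b were 0.20 (edgeR adjusted p = 0.0121) and 0.04 (0.515). Ash1l and Kmt5b are the 2 of the 9 that were called without 60 min control 5 alone and also without 120 min control 2 alone, and 6 of the 9 were called without 60 min control 1 alone. Kmt2d lost its call in 9 of the 11 fits without 1 library, Ehmt1 in 8 and Setd2 and Nsd3 in 6. Collagen genes, which the brain makes mainly in vessels and meninges, had Col19a1 alone called among 60 tested (0.91, edgeR adjusted p = 0.0116; 0.70 without the 2 libraries), below the share over all genes. All of these lists were chosen with earlier results of these libraries known, so their counts describe the genes and are not independent evidence.

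**Figure D3:**
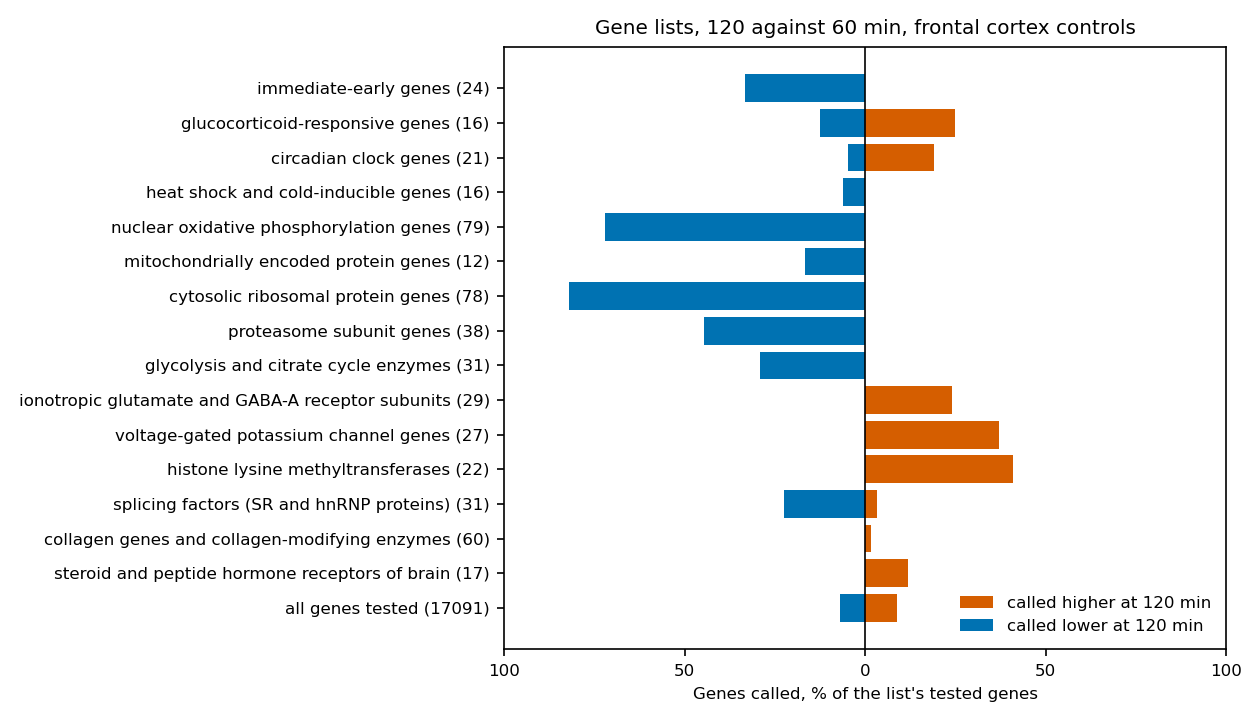
Share of the tested members of each gene list that were called higher (orange, to the right) or lower (blue, to the left) at 120 min, in % of the list (horizontal axis). Numbers in brackets are the tested members and the bottom bar is all 17091 genes (8.84% higher and 7.03% lower). Ribosomal protein and oxidative phosphorylation genes were called on the lower side alone and potassium channels, receptor subunits and histone methyltransferases on the higher side alone.

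Whether a transcript was higher or lower at 120 min went with its length and with its GC content. Genes called higher had a median exon length of 8426 bases and genes called lower one of 2427 bases, against 4172 bases over all genes tested. In the shortest quintile of genes 1.52% were higher and 15.6% lower with a median log2 change of -0.12, and in the longest quintile 27.1% were higher and 1.1% lower with a median of 0.12. Without 60 min controls 1 and 5 these medians were -0.10 and 0.09. In intruder-exposed residents they were -0.15 and 0.14, in hypothalamus controls 0.04 and -0.02 and in amygdala controls -0.04 and 0.01. By GC content, 11.8% were higher and 3.87% lower in the lowest quintile and 2.81% and 9.94% in the highest. The median log2 changes were 0.06 and -0.07, and 0.02 and -0.04 without 60 min controls 1 and 5. Per library, the median deviation of the longest quintile minus that of the shortest, on log2(CPM + 1), was -0.13, -0.06, -0.02, -0.20 and -0.09 in 60 min controls 1, 2, 3, 5 and 6 and -0.02 to 0.18 (median 0.10) at 120 min. All 60 min libraries were below all 120 min libraries, although 60 min control 3 and 120 min control 4, both at -0.02, nearly touched, and the 30 min controls were at 0.12 to 0.19. Properties of the libraries moved with time as well. The median exon length weighted by reads was 5087 to 5249 bases at 60 min and 5287 to 5502 bases at 120 min (exact permutation test, two-sided, p = 0.00433, adjusted over 7 measures 0.0152). It is computed from the same gene counts and is not separate from the trend with length. The share of reads not aligned uniquely was 11.02% ± 0.29 and 10.4% ± 0.23 (exact permutation p = 0.00433, adjusted 0.0152). Neither measure overlapped between the times. By the same exact permutation test, reads without a feature were 9.32% and 10.2% (p = 0.0216, adjusted 0.0417) and ambiguous reads 0.723% and 0.692% (p = 0.0238, adjusted 0.0417). The part of these library properties in the changes of single genes was not tested.

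**Figure D4:**
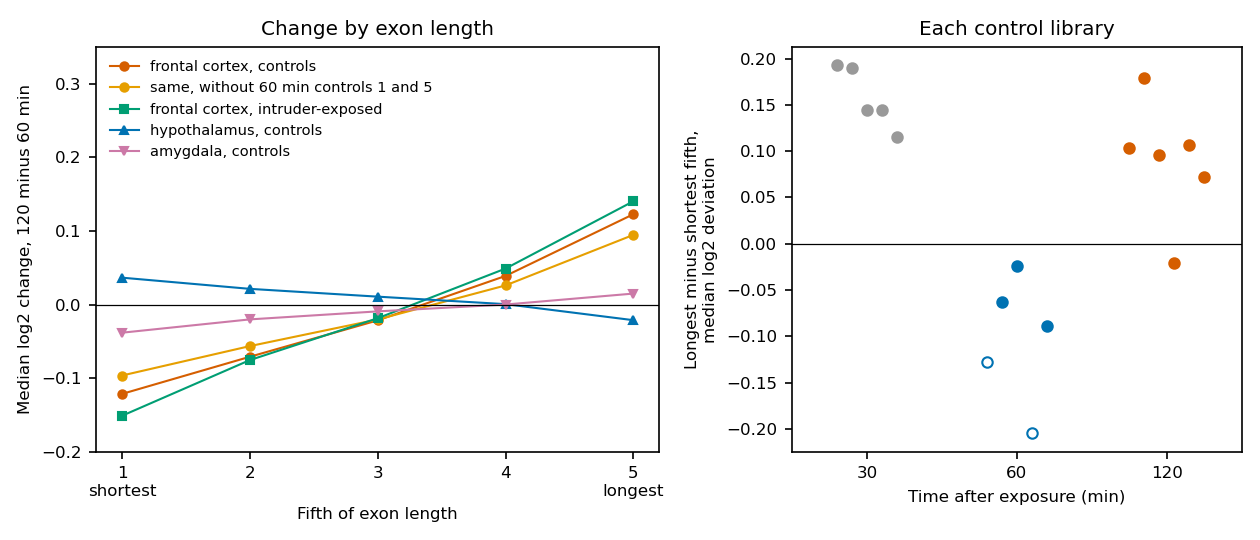
Left, median log2 change from 60 to 120 min (vertical axis) of genes in quintiles of exon length (horizontal axis, 3279 genes each) for frontal cortex controls, the same without 60 min controls 1 and 5, intruder-exposed residents, and hypothalamus and amygdala controls. Right, for each frontal cortex control library (points, open for 60 min controls 1 and 5), the median log2 deviation of the longest quintile minus that of the shortest. The frontal cortex lines rise from -0.12 to 0.12 in controls and from -0.15 to 0.14 in intruder-exposed residents, and the hypothalamus line falls from 0.04 to -0.02.

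When each library was given an offset by length and GC content of its genes, 1434 genes were called (8.39%), 716 higher (4.19%) and 718 lower (4.20%), and 1040 of these were among the 2713. Immediate-early genes then had 6 of 24 lower, potassium channels 6 of 27 higher and glucocorticoid-responsive genes 5 of 16 higher and 0 lower. Ribosomal protein genes had 23 of 78 lower, oxidative phosphorylation genes 18 of 79 lower, receptor subunits 2 of 29 higher and histone methyltransferases 1 of 22 higher. List medians with the offsets were -0.27 for immediate-early genes, -0.10 for ribosomal protein genes, -0.08 for oxidative phosphorylation genes, 0.14 for potassium channels and 0.03 for receptor subunits. Of the genes described by name, Klf10, Junb, Ddit4, Mt1, Hspe1, Per3, Rora, Nr1d2, Nfil3, Grin2b, Gabra2, Gabrb1, Gabrb2, Kcnh7, Kcnq5, Kcnc1, Kmt5b, Kmt2d, Ehmt1, Setd2, Nsd3, Srsf11, Praf2, Tnrc6b and Csmd1 were not called with the offsets. Nor were the cell type markers Cux1, Cux2, Pcp4, Slc1a2, Myh11, Sst, Cldn5, Opalin, Tbx21 and Doc2g. With the offsets and without 60 min controls 1 and 5 the edgeR count was 0, and 2866 genes had an unadjusted p below 0.05.

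The change was compared with that of other libraries. In intruder-exposed residents 3914 genes (22.9%) were called between 60 and 120 min. These residents share no library with the controls, although sequencing index and time moved together in their libraries as well. Genes called in both numbered 1700, which is 62.7% of the control calls and 43.4% of the intruder calls, and the sign was the same in 1700 of them. Without 60 min intruder replicate 2, 4 or 5 alone the intruder count was 2598, 1595 or 2283. The change differed between frontal cortex and hypothalamus in 1455 genes (8.35%) and between frontal cortex and amygdala in 0 by edgeR (1899 at an unadjusted p below 0.05, 163 by DESeq2). The count against hypothalamus fell to 519 without 60 min control 1, 873 without 3 and 559 without 5, and to 884, 726, 633 and 868 without 120 min control 1, 2, 3 or 6. Crebbp, a histone acetyltransferase that acts with CREB, was at 28.1, 30.4, 31.9, 21.6 and 27.2 CPM at 60 min and at 35.6 to 48.2 CPM (median 41.8) at 120 min in frontal cortex, a log2 change of 0.60 against -0.27 in hypothalamus, and the difference was 0.87 (edgeR adjusted p = 0.00529). Tnrc6b, a scaffold of microRNA silencing, changed by 0.35 against -0.30 (difference 0.66, edgeR adjusted p = 0.00529), Flrt2 by 0.41 against -0.14 (0.58, 0.00529) and Csmd1, a synaptic complement regulator, by 0.37 against -0.08 (0.47, 0.00654). In each of the 4 the groups of frontal cortex were separate, and without 60 min controls 1 and 5 the frontal cortex changes of Crebbp, Tnrc6b and Csmd1 were 0.49, 0.27 and 0.29. Without 60 min control 5 alone these 3 were not called in frontal cortex (edgeR adjusted p = 0.0508, 0.0557 and 0.0774), and Csmd1 was not called without 120 min control 2 either. With length and GC offsets the frontal cortex changes of Tnrc6b and Csmd1 were 0.09 and 0.14 and not called (edgeR adjusted p = 0.111 and 0.136). Among the lists the difference from hypothalamus was called for 45 of 78 ribosomal protein genes, all with the lower change in frontal cortex. It was called for 11 of 27 potassium channels and 9 of 22 histone methyltransferases, all with the higher change in frontal cortex. The tests between regions were made without length and GC offsets, and the part of gene length in these counts was not tested.

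Markers of cell types were called in small numbers. A single call was 11.1% of a list of 9 markers and 12.5% of a list of 8, beside 15.9% over all genes tested. The lists with 1 call thus lay below that share, and their calls describe single genes and not a cell type. The upper layer, astrocyte and olfactory bulb lists lay above it, with 2 or 3 calls each. Of 8 excitatory neuron markers 0 were called. Among 6 upper layer genes Rasgrf2, Cux2 and Cux1 were higher (log2 changes of 0.40, 0.38 and 0.23, edgeR adjusted p = 0.00835, 0.0178 and 0.0202) and among 8 deep layer genes Pcp4 was lower (-0.42, edgeR adjusted p = 0.0475), a call that 7 of the 11 fits without 1 library lost. Cux1 lost its call in 4 of those fits, Cux2 in 3 and Rasgrf2 in 0, and without the 2 libraries set apart the changes of Rasgrf2, Cux2, Cux1 and Pcp4 were 0.28, 0.23, 0.15 and -0.32. Of 8 astrocyte markers, 6 of them with positive changes, Slc1a2 and Fgfr3 were higher (each 0.27, edgeR adjusted p = 0.0139 and 0.0102), and of 8 mural cell markers, 7 of them positive, Myh11 was (0.47, edgeR adjusted p = 0.0409). Sst of interneurons (-0.26, edgeR adjusted p = 0.0185), Aif1 of microglia (-0.34, 0.0126) and Cldn5 of endothelial cells (-0.33, 0.0411) were lower. Each was the one call among 9 markers tested, of which 7 interneuron, 8 microglia and 5 endothelial markers had negative changes, with medians of -0.05, -0.12 and -0.04. None of these 6 was called without 60 min control 5 alone, and Myh11 and Cldn5 lost the call in 8 of the 11 fits. The upper layer score was 6.61 ± 0.10 at 60 min and 6.84 ± 0.08 at 120 min (exact permutation test, p = 0.00649, adjusted over 18 lists 0.117), the smallest p of the 18 scores, so none passed the adjustment. Oligodendrocyte markers had 9 of 9 negative log2 changes with Opalin alone called (-0.46, edgeR adjusted p = 0.0297; lost in 4 of the 11 fits without 1 library), and their score was 8.03 ± 0.27 and 7.70 ± 0.22 (exact permutation test, p = 0.0584, adjusted 0.257). Of 7 olfactory bulb genes Tbx21 and Doc2g were lower (-2.43 and -1.38, edgeR adjusted p = 0.0290 and 0.0304), with Doc2g at 8.69 and 13.9 CPM in 60 min controls 1 and 5, at 2.03 to 5.75 CPM in the other 60 min controls and at 1.3 to 4.55 CPM at 120 min. Without those 2 libraries the log2 changes of Tbx21 and Doc2g were -1.26 and -0.39, and their calls were lost in 4 and 5 of the 11 fits without 1 library.

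Sequencing index and time moved together in these libraries. The 60 min controls 1, 2 and 3 shared a first index, 60 min controls 5 and 6 another, and all 120 min controls a further index. Index and time therefore cannot be told apart. The frontal cortex libraries of intruder-exposed residents carried the first index of 60 min controls 1, 2 and 3 at 60 min. At 120 min they carried that of 60 min controls 5 and 6, so index and time moved together there too. Against the same 6 libraries of 120 min, 60 min controls 1, 2 and 3 gave 3 called genes and 60 min controls 5 and 6 gave 1624, and in both sets 1 of the libraries set apart by the first principal component was included.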

How the data were processed

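RNA was sequenced as single-end reads from stranded mRNA libraries, per the labels' protocols. The authors deposited 1 table of raw read counts per gene for 90 libraries. CASAVA 1.8.2, TopHat2 2.0.8, HTSeq 0.6.1, edgeR 3.2.4, R 3.0.0 and the build NCBIM37 are named in the submitters' processing notes. Summary lines that name no gene were left out of library sizes and tests: reads without a feature were 9.32% and 10.2% and ambiguous reads 0.723% and 0.692% of reads at 60 and 120 min. Symbols (32919 of 37991 identifiers), exon lengths and GC content (95.9% of tested genes) came from a GRCm38 annotation, a later build than that of the counts.

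Counts of all 32 frontal cortex libraries were fitted together in edgeR 4.0.16 (R 4.3.3), with filterByExpr, TMM scaling and the quasi-likelihood F test, and the contrast was 120 minus 60 min. The common biological coefficient of variation was 10.3%. CPM values are on TMM-scaled library sizes. The differences between regions were tested with the animal as a block. Scores are means of log2(CPM + 1). Single values were compared by exact permutation over the 462 groupings of 5 and 6 libraries. DESeq2 1.42.0, other scalings, filters, samples, blocks and offsets were alternatives, and the fits were tested on simulated data.

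Genes were named by rule: the 8 higher and 8 lower with the smallest p, the 6 and 6 with the largest separate changes at a mean of at least 1 CPM, members of the lists, and 4 genes per test between regions. The members and lists were chosen with earlier results of these data known. Leaving out 60 min controls 1 and 5, with and without offsets, and fitting 60 and 120 min libraries alone were chosen after seeing the data. Some results on single genes are not reported here.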

Additional observations from a re-analysis of the deposited data

Results flagged for a closer look

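Among 106 groups of values examined for a single distant library, 4 held one, while chance alone gives about 1 in 20. The 120 min control 1 had 38.6 M reads in genes, below the other 120 min controls at 49.2 M to 53.8 M. The share of ambiguous reads in 120 min control 4 was 0.719%, above the others. Gcfc2 was at 7.71 CPM in 120 min control 1 and at 5.77 to 6.38 CPM in the other 120 min controls. Tmsb4x was at 638 CPM in 60 min control 5, 1 of the libraries set apart on the first principal component, and at 579 to 591 CPM in the other 60 min controls.

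The change from 60 to 120 min in controls differed between frontal cortex and hypothalamus by 0.58 for Flrt2, 0.66 for Tnrc6b and 0.87 for Crebbp on the log2 scale (edgeR adjusted p = 0.00529 for each), and by 0.47 for Csmd1 (edgeR adjusted p = 0.00654).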

How the results depend on the processing

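The count of 2713 genes called between 60 and 120 min became 0 without 60 min controls 1 and 5, 0 with offsets and without them, 1434 with length and GC offsets, 3 with 60 min controls 1, 2 and 3 alone and 1624 with 60 min controls 5 and 6 alone. Leaving out 1 library gave 428 to 3235 genes. The other settings gave 1965 (no filter) to 3840 genes. Upper-quartile scaling turned the split from 1511 higher and 1202 lower to 1351 and 1483. Leaving out 1 library gave 1595 to 5717 genes for intruder-exposed residents and 519 to 1989 for frontal cortex against hypothalamus. Frontal cortex against amygdala gave 163 genes with DESeq2 and 1 without a filter, in place of 0. The cause of these shifts was not tested.

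Control animals of the 2 times were different animals that share only a replicate number. With the replicate number as a block 3840 genes were called. Same-numbered libraries correlated at 0.04 to 0.27, and 1 of 5 correlated best with its own number. Of the values of single genes, lists and scores, 1064 kept their side of the threshold or moved by less than the replicate spread, 101 lost a call, 9 gained one and 135 moved, and 0 reversed. Time and the first library index cannot be told apart, and each group holds 5 or 6 libraries, which limits the precision.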
